A study of Mus musculus with 8 samples.

Results

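Malat1, Neat1, Nono, Sfpq, Pspc1, Srrm1, Srrm2 and Son encode RNAs and proteins of 2 kinds of nuclear body, nuclear speckles and paraspeckles. These 8 genes, of 40840 in each table of read counts, were taken by symbol and all 8 had enough reads to be tested among 19104 genes. The set was put together around Malat1, which was selected on its higher level in this same comparison of genotypes. The values of Malat1 are therefore a description with no test, while the other 7 genes joined it by their known place in the nucleus. The data are RNA-seq of whole testes from 8 mice at postnatal day 12 (P12), of which 4 were wild type and 4 were Tra2b-cPEko, with replicates A to D in each genotype. In C57BL/6J mice a poison exon of Tra2b, the gene of the splicing factor Tra2β, was flanked by LoxP sites. A poison exon is one whose inclusion exposes the mRNA to nonsense-mediated decay. The wild type mice carried 1 floxed and 1 intact allele (Tra2bPE fl/+) and no Cre transgene. The Tra2b-cPEko mice carried a floxed and a deleted allele together with Vasa-Cre, so the genotypes differ in a deleted allele and in the transgene as well. Vasa-Cre is driven by a germ cell promoter, so Sertoli cells, Leydig cells and the other somatic cells of the same testes keep 1 floxed poison exon allele. A whole-testis library sums germ and somatic cells, and a lower level can be fewer cells of a type or less RNA per cell, which cannot be told apart here.

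Nuclear speckles are interchromatin bodies that hold splicing factors, and SR proteins such as Tra2β are found there. SON and SRRM2 are large scaffold proteins of the speckle, SRRM1 is their serine- and arginine-rich partner and splicing coactivator, and Malat1 is an abundant long noncoding RNA that gathers at speckles and binds SR proteins. Paraspeckles are separate bodies that form on the long isoform of the noncoding RNA Neat1. NONO, SFPQ and PSPC1, the DBHS proteins, bind Neat1 as dimers, and NONO and SFPQ are needed for the body to form. Malat1 and Neat1 are neighbours in the genome, and Malat1 and the long isoform of Neat1 share an unusual 3′ end. RNase P cuts the primary transcript in front of a tRNA-like element, and the mature end is protected by a triple helix of an A-rich tract and U-rich stretches instead of by an ordinary poly(A) tail.

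In GENCODE vM39 on GRCm39, Malat1 lies on the minus strand of chromosome 19 at 5845717 to 5853602 and Neat1 on the same strand at 5874736 to 5897132, with 21133 bases between them. AGAA is a short purine-rich sequence bound by Tra2β. It was searched as AGAA on the transcript strand only, with overlapping matches counted, in the longest transcript of each gene, and a match is a match of letters and not a bound site. Malat1 held 72 matches in 7886 bases (9.13 per kb) and Neat1 held 97 in 22397 bases (4.33 per kb). The median of 16479 tested genes with a transcript of at least 1000 bases was 6.99 per kb, so that Malat1 stood at percentile 79.4 of these genes and Neat1 at percentile 11.3. The stretch of 100 bases richest in AGAA in each RNA is printed here, with the matches in capitals, because it shows the contrast between the neighbours. It holds 8 matches in Malat1 (chr19:5851810-5851909, minus strand) and 5 in Neat1 (chr19:5877490-5877589, minus strand), and 3.57% and 31.6% of the transcripts, respectively, have a stretch with as many.
Malat1, richest in AGAA: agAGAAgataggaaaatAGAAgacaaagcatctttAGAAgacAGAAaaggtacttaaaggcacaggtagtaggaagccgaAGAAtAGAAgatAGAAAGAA
Neat1, richest in AGAA: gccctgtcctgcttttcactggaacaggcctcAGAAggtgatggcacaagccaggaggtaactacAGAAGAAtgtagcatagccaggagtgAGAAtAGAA
The longest run of A in each transcript is printed next, with the run in capitals, because the A-rich tract of the Malat1 3′ end is encoded in the genome and can be captured by oligo(dT) in libraries prepared from poly(A) RNA, as these were. In Malat1 the run has 12 A and follows 2 T-rich stretches (printed bases chr19:5846006-5846087, minus strand). In Neat1 the longest run has 7 A and lies inside the transcript (printed bases chr19:5882923-5882999, minus strand).
Malat1, longest run of A: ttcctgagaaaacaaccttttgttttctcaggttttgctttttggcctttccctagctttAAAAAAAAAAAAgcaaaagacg
Neat1, longest run of A: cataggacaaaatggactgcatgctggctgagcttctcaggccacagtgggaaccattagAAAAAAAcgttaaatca
The 4 sequences were taken from the GENCODE vM39 transcripts, with positions on GRCm39.

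The mRNAs of the 6 proteins differed in the same measure. Srrm1 (14.2 AGAA per kb, percentile 97.7) and Srrm2 (percentile 97.5) were above nearly all of these genes. Pspc1 had 10.4 per kb, Son 9.55, Sfpq 8.39 and Nono 7.71, all above the median of 6.99. Of the 8 genes only Neat1 lay below that median.

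**Figure D1:**
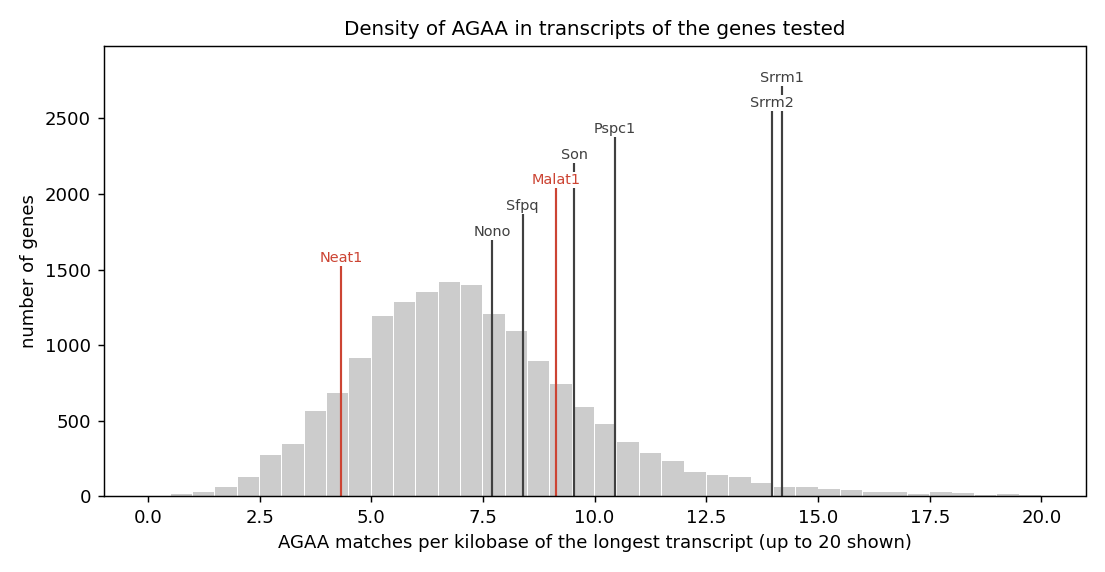
Number of genes (vertical axis) by the number of AGAA matches per kilobase of the longest transcript (horizontal axis) for the tested genes with a transcript of at least 1000 bases; densities above 20 per kb are not drawn. Vertical lines mark the 8 genes by name, with Malat1 at 9.13 and Neat1 at 4.33 in red; line heights only separate the names.

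Reads on genes ranged from 41998195 to 59101569 in the wild type libraries and from 36757386 to 49992767 in the Tra2b-cPEko libraries, and no 2 libraries of a genotype agreed within counting error. Levels are given as CPM, the count of a gene scaled to the TMM-adjusted total of reads on genes in its library, and log2 fold changes (log2FC) are Tra2b-cPEko minus wild type from edgeR. The total Tra2b count, which does not show whether the poison exon was removed, was 164 ± 8.93 CPM in wild type mice and 198 ± 8.49 CPM in Tra2b-cPEko mice (mean ± SD, n = 4 each; log2FC 0.27, edgeR adjusted p = 0.0552). Its paralogue Tra2a fell from 129 ± 15.3 to 69.5 ± 3.36 CPM (log2FC −0.89, edgeR adjusted p = 0.00231). Markers of the testis cell types were present in every library: the 11 Sertoli cell markers summed to 6054 to 6788 CPM and the 16 leptotene and zygotene spermatocyte markers to 2016 to 2718 CPM. Of 12 pachytene markers 4, Pgk2, H1f6, Pou5f2 and Adam3, had too few reads to be tested. In the fit across all genes, 30 of 19104 (0.157%) had an adjusted p under 0.05, 25 of them higher (0.131%) and 5 lower (0.0262%) in Tra2b-cPEko testes. DESeq2 called 507 of 18149 genes (2.79%) and limma-voom 11 of 19104 (0.0576%).

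Among the 8 genes, 1 passed the threshold, Malat1, in the direction for which it had been chosen, and none of the other 7 did. At an unadjusted p under 0.05, which 15.3% of all genes reached, there were 2, Malat1 and Son. DESeq2 called Malat1 alone and limma-voom called none of the 8. In 1 of the 8 genes, again Malat1, the 4 mice of one genotype lay wholly above the 4 of the other, as 4.36% of all genes did in this direction and 4.18% in the other. Since Malat1 was selected on this difference, its call and its separation are a description and no test.

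Malat1 was measured at 496, 483, 551 and 479 CPM in wild type mice A to D. In Tra2b-cPEko mice A to D it was at 646, 762, 646 and 835 CPM. The lowest Tra2b-cPEko value was above the highest wild type value, and mice B and D stood above A and C among the Tra2b-cPEko mice. The means were 502 ± 33.3 and 722 ± 92.9 CPM (SD, n = 4 each), a log2FC of 0.52 with a standard error of 0.084 and a 95% interval of 0.34 to 0.71, or 43.7% more. The coefficient of variation was 6.63% among wild type mice and 12.9% among Tra2b-cPEko mice, whereas counting error at the lowest count of 20431 reads was 0.70%. Leaving out each mouse in turn gave a log2FC between 0.44, without Tra2b-cPEko mouse D, and 0.57, without Tra2b-cPEko mouse A. Malat1 passed the threshold in 8 of 18 other settings, and it did not pass without wild type mouse A (log2FC 0.52), B (0.51) or D (0.50) or without Tra2b-cPEko mouse A (0.57), B (0.49) or D (0.44). These outcomes describe a gene selected on this difference and are no test of it.

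**Figure D2:**
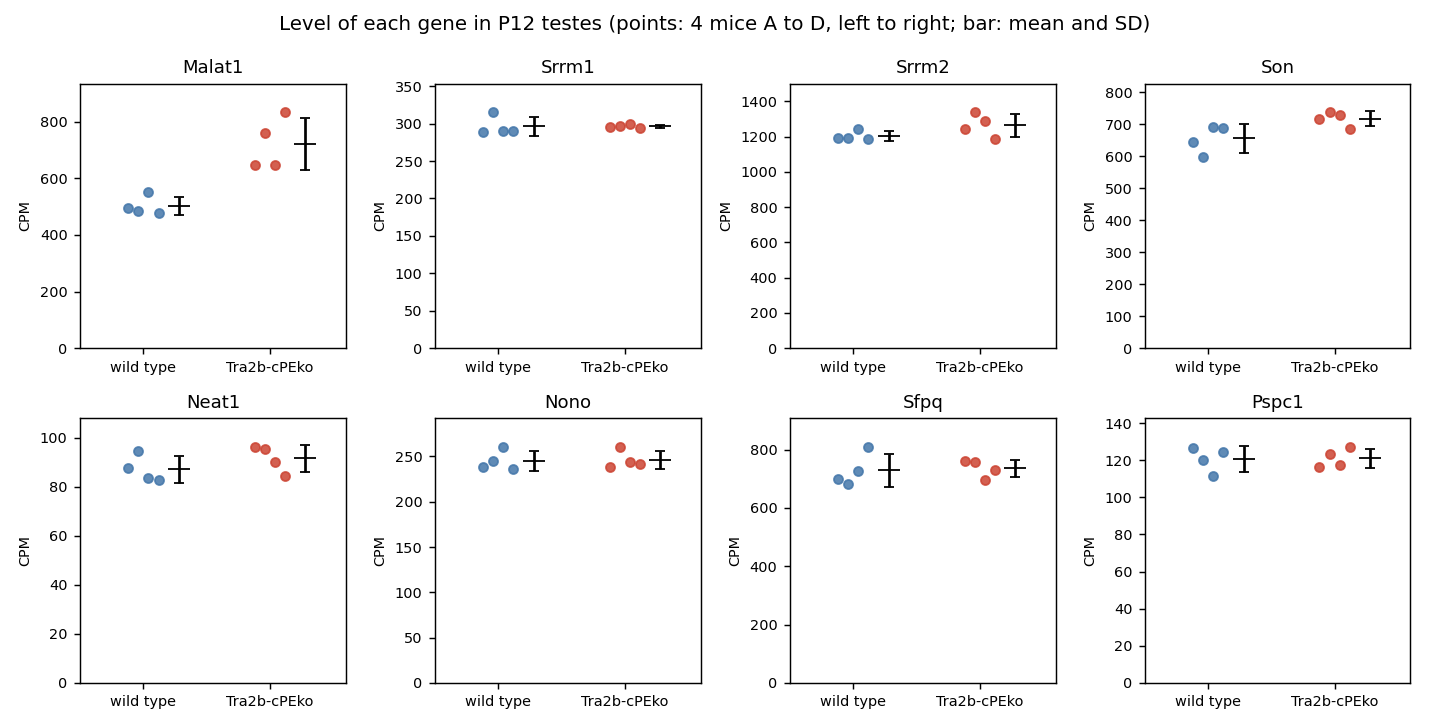
Level of each of the 8 genes in CPM (vertical axes, all starting at 0) in 4 wild type (blue) and 4 Tra2b-cPEko (red) P12 testes, mice A to D from left to right, with the mean and SD in black. The genotypes separate for Malat1, at 479 to 551 against 646 to 835 CPM, and overlap in the other 7 panels.

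Malat1 reads cannot be assigned to one strand here, since how the strand was treated in counting is not given in the sources used here. The lncRNA Gm59785 and the unconfirmed gene model Gm37376 lie opposite Malat1 exons in GENCODE and have no row in the tables. The printed AGAA-rich stretch lies within Gm59785. At least 50% of a transcript of Gm24576, Gm25072, Gm25735, Gm56085 and Gm56405 also matches Malat1 at 95% identity or more, so the Malat1 count is uncertain to that extent.

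Another pair of measures separated the same mice, the second of them only narrowly. Reads that the counting assigned to no gene feature, which may include reads within introns, were 12.4% to 12.8% of all reads in the wild type libraries. They were 13.2% to 13.6% in the Tra2b-cPEko libraries. In Tra2b-cPEko mice A to D this share was 13.2%, 13.5%, 13.5% and 13.6%, where Malat1 was at 646, 762, 646 and 835 CPM. The share of reads counted to no gene for any reason, which includes these, separated as well. It was 31.0% to 32.4% in the wild type libraries and 32.7% to 33.6% in the Tra2b-cPEko libraries. The 9 macrophage markers (Csf1r, Adgre1, Cd68, Mrc1, C1qa, C1qb, C1qc, Lyz2 and Cd163) summed to 139.6 to 173.6 CPM in wild type mice and 173.9 to 207 CPM in Tra2b-cPEko mice. None of the 9 was at 0, and all 9 had a higher mean in Tra2b-cPEko testes, with log2FC from 0.20 to 0.32 and a median of 0.24. In each of the 9 taken alone the genotypes overlapped. None had an edgeR adjusted p under 0.05, DESeq2 called Csf1r and limma-voom none. An unadjusted edgeR p under 0.05 was reached by 5 of the 9, beside 15.3% of all genes. In Tra2b-cPEko mice A to D the macrophage sum was 177, 189.6, 207 and 173.9 CPM. Of all the cell type lists examined, only this one had sums that separated the genotypes. Among single genes, 4.36% separated in this direction. The part of any of these measures in the Malat1 difference was not tested.

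**Figure D3:**
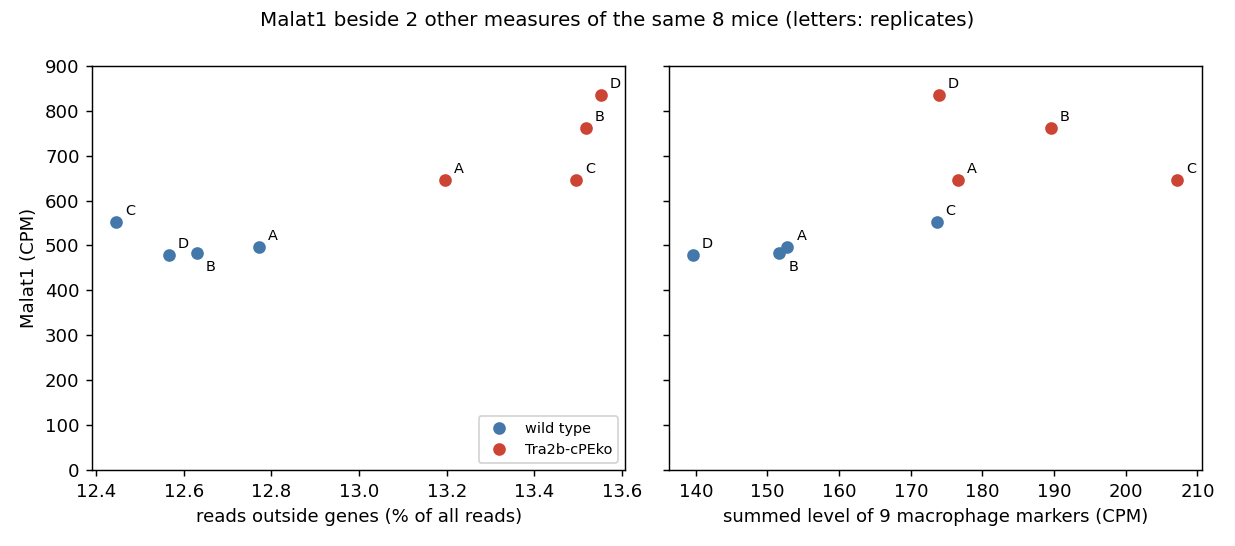
Malat1 level in CPM (vertical axis, from 0) against the percentage of reads assigned to no gene feature (left, where the axis label reads outside genes) and against the summed CPM of 9 macrophage markers (right). There is 1 point per mouse, with its replicate letter, wild type in blue and Tra2b-cPEko in red, and horizontal axes do not start at 0. The genotypes are apart on the left horizontal axis, at 12.4% to 12.8% against 13.2% to 13.6%, and only narrowly apart on the right one, at 139.6 to 173.6 against 173.9 to 207 CPM.

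Of the other cell type lists, the 8 Leydig cell markers had a median log2FC of 0.43 and summed to 600.0 to 648 CPM in wild type mice and 627 to 843 CPM in Tra2b-cPEko mice. That median was 0.26 without wild type mouse C. None of the 8 was called by edgeR (2 had an unadjusted p under 0.05), DESeq2 called 2, Hsd3b6 and Lhcgr, and limma-voom none. The 7 markers of differentiating spermatogonia had a median of −0.11, or −0.18 without Tra2b-cPEko mouse D. EdgeR called 1 of them, Sohlh1, lower (2 had an unadjusted p under 0.05), DESeq2 called Sohlh1 and Neurog3, and limma-voom none. The 16 leptotene and zygotene markers had a median of −0.12, or −0.04 without wild type mouse A, and none was called by edgeR (4 had an unadjusted p under 0.05), 1, Stag3, by DESeq2 and none by limma-voom. The 8 pachytene markers tested had a median of −0.07, which ran from −0.21 without wild type mouse C to −0.0004 without wild type mouse B, and none was called by edgeR, DESeq2 or limma-voom or had an unadjusted p under 0.05. The summed ranges of these 4 lists overlapped between genotypes, and the median log2FC over all genes was −0.0011. Over all genes, 15.3% had an unadjusted edgeR p under 0.05, and edgeR called 0.157%, DESeq2 2.79% and limma-voom 0.0576%. The median was −0.01 for 12 undifferentiated spermatogonial, −0.04 for 11 Sertoli, 0.09 for 10 peritubular and stromal, 0.06 for 8 endothelial and −0.54 for 5 red blood cell markers, with no gene called by edgeR in these 5 lists (1, 1, 2, 0 and 0 had an unadjusted p under 0.05, and DESeq2 and limma-voom called none). Leaving out a mouse moved the red blood cell median between −0.92, without Tra2b-cPEko mouse B, and −0.13, without wild type mouse B, and the Sertoli median between −0.08, without Tra2b-cPEko mouse A, and 0.006, without wild type mouse D. Their part in the Malat1 difference was not tested.

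The 3 genes of speckle proteins had log2FC from 0.0007 to 0.13. Son, which encodes a scaffold and an RNA-binding splicing cofactor (chromosome 16, 91443949 to 91476605, plus strand), was at 644, 598, 693 and 688 CPM in wild type mice A to D. In the Tra2b-cPEko mice it was at 718, 739, 729 and 687 CPM. Of the Tra2b-cPEko mice 3 exceeded every wild type mouse, and D lay among them. The means were 656 ± 44.4 and 718 ± 22.6 CPM, with log2FC 0.13 (SE 0.052, 95% interval 0.02 to 0.24). The difference did not pass the threshold (edgeR adjusted p = 0.265, exact permutation p = 0.0857, two-sided). The smallest p that exact permutation of 4 against 4 mice allows is 0.0286. Son shares exons on the opposite strand with Donson, at 40.6 CPM, and Gart, at 196 CPM.

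Srrm2, the other scaffold (chromosome 17, 24009506 to 24043715, plus strand), was at 1194, 1192, 1244 and 1184 CPM in wild type mice. In Tra2b-cPEko mice it was at 1243, 1339.9, 1288 and 1189 CPM. The ranges overlapped, with Tra2b-cPEko mice B and C above every wild type mouse and D among the wild type values. The means were 1204 ± 27.5 and 1265 ± 64.3 CPM (log2FC 0.07, SE 0.046, 95% interval −0.03 to 0.17, edgeR adjusted p = 0.484, exact permutation p = 0.2). The pseudogene Gm16581 is a near-identical copy of part of Srrm2, and Srrm2 overlaps Elob (120.3 CPM) on the opposite strand, so reads of these genes may have been divided differently.

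Srrm1, the splicing coactivator (chromosome 4, 135046676 to 135080632, minus strand), was at 289, 316, 290.1 and 290.1 CPM in wild type mice. The Tra2b-cPEko mice were at 296, 296, 299 and 295 CPM. Only wild type mouse B stood apart from a narrow band, and the means of both genotypes were 296 CPM (SD 12.9 and 1.87). The log2FC was 0.0007 (SE 0.041, 95% interval −0.09 to 0.09, edgeR adjusted p = 0.996, exact permutation p = 1). Its mRNA has the highest AGAA density of the 8 genes.

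Neat1, the scaffold RNA of paraspeckles, was at 87.7, 94.7, 83.8 and 82.6 CPM in wild type mice. In Tra2b-cPEko mice it was at 96.4, 95.6, 90.1 and 84.4 CPM. The ranges overlapped, with Tra2b-cPEko mice A and B and wild type mouse B at the top. The means were 87.2 ± 5.44 and 91.6 ± 5.58 CPM (log2FC 0.07, SE 0.056, 95% interval −0.05 to 0.19, edgeR adjusted p = 0.568, exact permutation p = 0.257). Counts per gene do not separate the short and long Neat1 isoforms, and only the long one builds paraspeckles. The libraries were prepared from poly(A) RNA and the long isoform lacks an ordinary poly(A) tail, so it may be under-represented. The Neat1 count therefore does not give the level of the isoform that builds paraspeckles. Frmd8os, on the opposite strand of Neat1, was at 0.640 and 0.759 CPM.

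Within each library the number of Malat1 reads per Neat1 read does not depend on the scaling between libraries. It was 5.66, 5.10, 6.58 and 5.80 in wild type mice A to D. It was 6.70, 7.97, 7.17 and 9.89 in Tra2b-cPEko mice A to D. The lowest Tra2b-cPEko ratio, in mouse A, was above the highest wild type ratio, in mouse C. The means were 5.78 ± 0.607 and 7.93 ± 1.41, a description with no test since Malat1 was selected on its difference.

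The 3 DBHS genes had log2FC from 0.005 to 0.014. Nono (chromosome X, 100472901 to 100492202, plus strand) was at 239, 245, 261 and 236 CPM in wild type mice. In Tra2b-cPEko mice it was at 238, 261, 244 and 242 CPM. The values overlapped throughout (log2FC 0.006, 95% interval −0.09 to 0.11, edgeR adjusted p = 0.969, exact permutation p = 0.886). Near-identical copies of Nono transcripts are annotated as Gm8806 and Gm5171, so its count is uncertain to that extent.

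Sfpq (chromosome 4, 126915079 to 126930806, plus strand), the splicing factor that pairs with NONO, was at 701, 681, 726 and 810.2 CPM in wild type mice. Its levels in Tra2b-cPEko mice were 761, 756, 697 and 730.5 CPM. All Tra2b-cPEko values lay within the wild type range (log2FC 0.014, 95% interval −0.11 to 0.14, edgeR adjusted p = 0.934, exact permutation p = 0.771). Pspc1 (chromosome 14, 56958166 to 57015804, minus strand), the third DBHS gene, was at 127, 120.1, 111 and 125 CPM in wild type mice. Its Tra2b-cPEko levels were 116, 123, 117 and 127 CPM. These ranges overlapped as well (log2FC 0.005, 95% interval −0.10 to 0.11, edgeR adjusted p = 0.976, exact permutation p = 0.971).

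**Figure D4:**
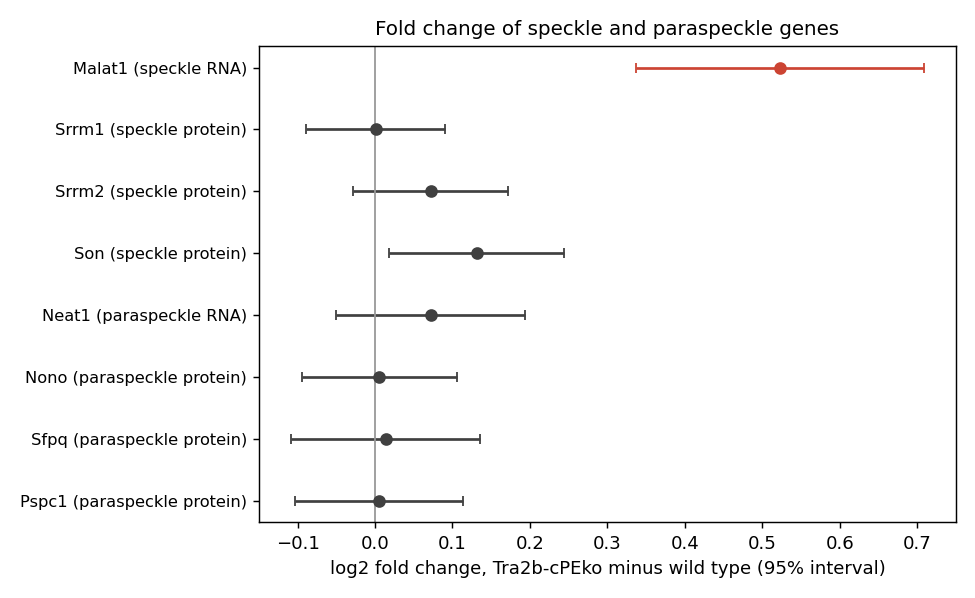
Log2 fold change of each of the 8 genes, Tra2b-cPEko minus wild type (horizontal axis), with its 95% interval from edgeR; n = 4 mice of each genotype. Malat1 (red) is at 0.52 with an interval of 0.34 to 0.71, Son at 0.13 with 0.02 to 0.24, and the intervals of the other 6 genes include 0.

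The balance between partners was compared within libraries by 4 ratios of counts, each by a two-sided exact permutation test with p adjusted over the 4. Nono to Sfpq was 0.338 ± 0.0325 in wild type mice and 0.334 ± 0.0162 in the Tra2b-cPEko mice (exact p = 0.914, adjusted 0.914). Pspc1 to Sfpq was 0.166 ± 0.0145 and 0.165 ± 0.00906 (exact p = 0.857, adjusted 0.914). Srrm1 to Srrm2 was 0.246 ± 0.0134 and 0.235 ± 0.0111 (exact p = 0.257, adjusted 0.571). Son to Srrm2 was 0.545 ± 0.0332 and 0.568 ± 0.0125 (exact p = 0.286, adjusted 0.571). In all 4 ratios the genotypes overlapped.

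Divided by exon length, in CPM per kb, the order of levels in wild type testes was Sfpq (134 ± 10.4), Srrm2 (85.2 ± 1.95), Malat1 (63.7 ± 4.22), Nono (44.9 ± 2.04), Son (41.4 ± 2.80), Srrm1 (34.3 ± 1.5), Pspc1 (20.6 ± 1.17) and Neat1 (3.89 ± 0.243). Only Nono and Son, neighbours in that order, overlapped between mice. In Tra2b-cPEko testes Sfpq (135 ± 5.39) was followed by Malat1 (91.6 ± 11.8) and Srrm2 (89.5 ± 4.55), which overlapped, and then by Son (45.3 ± 1.43) and Nono (45.0 ± 1.83), which overlapped too. Srrm1 (34.4 ± 0.217), Pspc1 (20.7 ± 0.890) and Neat1 (4.09 ± 0.249) kept their ranks. The length is that of all annotated exons of a gene, so a gene read mostly from a short isoform, as Neat1 may be, has a level per kb that is too low. Malat1 and the long isoform of Neat1 lack an ordinary poly(A) tail, and the libraries were prepared from poly(A) RNA. Their place beside the mRNAs thus depends on capture as well as on level.

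Around Malat1 and Neat1, 14 other genes within 100 kb had enough reads to be tested and none was called by edgeR, DESeq2 or limma-voom. An unadjusted edgeR p under 0.05 was reached by 1, Slc25a45, beside 15.3% of all genes. In all 14 the genotypes overlapped. Frmd8, which lies next to Neat1, was at 50.9 ± 2.80 and 49.6 ± 1.28 CPM (log2FC −0.04, edgeR adjusted p = 0.751). Slc25a45, a mitochondrial carrier gene, was at 57.0 ± 2.50 and 63.2 ± 5.93 CPM (log2FC 0.15, edgeR adjusted p = 0.285). Ltbp3, which encodes a binding protein of latent TGF-β, was at 125 ± 10.6 and 115 ± 10.8 CPM (log2FC −0.13, edgeR adjusted p = 0.425). The log2FC of 10 others lay between −0.18 in Znrd2 and 0.23 in Frmd8os, with Tigd3, Dpf2, Gm42067, Fam89b, Cdc42ep2, Ehbp1l1, Map3k11 and Pola2 between them.

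Further genes of the same bodies were described from lists of known components. Of 41 other speckle proteins all were tested and none was called by edgeR, DESeq2 or limma-voom, with 1 higher and 5 lower at an unadjusted p under 0.05. That cutoff was reached by 15.3% of all genes, counting both directions. Their log2FC ran from −0.18 to 0.39 with a median of −0.01, beside −0.0011 over all genes. At the lower end were Alyref, an mRNA export adaptor (86.4 ± 5.13 and 76.0 ± 4.25 CPM, log2FC −0.18, edgeR adjusted p = 0.160), and Rbm8a, a subunit of the exon junction complex (log2FC −0.14, edgeR adjusted p = 0.201). At the upper end were Zc3h18, which links the cap-binding complex to RNA decay (log2FC 0.11, edgeR adjusted p = 0.281), and Pabpn1, the nuclear poly(A)-binding protein. Pabpn1 ranged from 10.5 to 29.7 CPM in wild type mice and from 18.5 to 31.7 CPM in Tra2b-cPEko mice (log2FC 0.39, SE 0.39, edgeR adjusted p = 0.676), and in both genotypes mouse D was the highest.

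Of 34 other paraspeckle proteins none was called by edgeR or limma-voom, with 1 higher and 4 lower at an unadjusted p under 0.05, and DESeq2 called 1, Cirbp. Over all genes, 15.3% reached that unadjusted cutoff in either direction and DESeq2 called 2.79%. The median log2FC was −0.02. Cirbp, the cold-inducible RNA-binding protein, was at 196 ± 16.6 and 169 ± 5.79 CPM (log2FC −0.21, edgeR adjusted p = 0.136), and Rbm4b, a splicing regulator, had a log2FC of −0.15 (edgeR adjusted p = 0.268). Akap8l, a nuclear matrix protein, had a log2FC of 0.08 (edgeR adjusted p = 0.569).

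Of 15 other nuclear long noncoding RNAs 14 were tested (Miat was not) and 1, Kcnq1ot1, was called, higher, by edgeR, DESeq2 and limma-voom. Over all genes, edgeR called 0.157%, DESeq2 2.79% and limma-voom 0.0576%, in either direction. The list was written when Kcnq1ot1 was already known to be higher in these samples, so its call and its separation are a description and no test. Kcnq1ot1, the imprinted antisense RNA that silences its neighbours on the paternal chromosome, was at 24.4, 24.5, 25.5 and 24.3 CPM in wild type mice. In Tra2b-cPEko mice it was at 30.0, 33.6, 33.7 and 31.9 CPM. The genotypes did not overlap, as in 4.36% of all genes in this direction. The means were 24.7 ± 0.519 and 32.3 ± 1.73 CPM (log2FC 0.39, SE 0.055, edgeR adjusted p = 0.0225). The median log2FC of the 14 was 0.04. Among the rest with at least 1 CPM, Snhg11 (log2FC −0.12, edgeR adjusted p = 0.414) and Ftx (log2FC −0.10, edgeR adjusted p = 0.598) were at the lower end. Jpx, an activator of Xist, was at the upper end with 1.71 ± 0.276 and 2.09 ± 0.182 CPM (log2FC 0.29, edgeR adjusted p = 0.376).

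Of 8 factors that make or hold the 3′ ends of Malat1 and Neat1, 7 were tested (Rpp14 was not), none was called by edgeR, DESeq2 or limma-voom, and 1, Rpp30, was lower at an unadjusted p under 0.05, beside 15.3% of all genes in either direction. Their median log2FC was −0.08. Rpp30, an RNase P subunit, was at 19.3 ± 0.632 and 17.5 ± 1.10 CPM (log2FC −0.14, edgeR adjusted p = 0.320). Elac2, the nuclease that trims the tRNA-like product, was at 83.7 ± 3.67 and 79.0 ± 1.89 CPM (log2FC −0.08, edgeR adjusted p = 0.391). Rpp40 (log2FC −0.04, edgeR adjusted p = 0.785) and Pop1, the largest protein subunit of RNase P (log2FC 0.11, edgeR adjusted p = 0.438), completed the range.

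Across the 8 mice, Malat1 was compared with 10849 genes of at least 10 CPM by Pearson's r of the log2 CPM. The values of r are a description over libraries that differ in genotype and in depth. The genes most like Malat1 were Snx10 (r = 0.97), Brox (0.95), Ccdc66 (0.95), LOC108167553 (0.94) and Clec16a (0.93). With genotype means subtracted they were Cir1 (0.97), Taf7 (0.95), Chst10 (0.95), Pcnp (0.94) and Lap3 (0.93). Those most like Neat1 over the 8 mice were Man2c1 (0.95), Med15 (0.92), Cdk11b (0.92), Afmid (0.91) and Fggy (0.91). With genotype means subtracted they were Ap1s1 (0.99), Cdk20, Ddx39b and Slc35b2 (0.98 each) and Hdac10 (0.96). None of the 4 sets of 5 genes shared a member with another. Each set holds the highest of 10849 values of r over 8 mice, and how high r would be by chance among so many genes was not tested.

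Among the 8 genes themselves, Malat1 and Neat1 had an r of 0.19 over the 8 mice and of −0.48 with genotype means subtracted. With genotype means subtracted, 2 of 28 pairs had an r above 0.7 in size, Srrm2 with Nono (0.77) and Srrm1 with Son (−0.73). The largest r of Malat1 with another of the 8 in that form was 0.50, with Nono.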

How the data were processed

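Total RNA from whole testes at P12 (4 wild type mice, 4 Tra2b-cPEko mice), described by the study as biologically independent, was made into poly(A)-selected, stranded, paired-end libraries. The authors deposited whole-number read counts per gene for each mouse. Per the labels, their processing notes name HISAT2 2.2.1, SAMtools 1.7.1, HTSeq 2.0.2 and deepTools 3.5.1, with GRCm39. How strand was treated in the counting is not given in the sources used here. The 5 closing lines of each table that name no gene held 31.0% to 33.6% of reads and were left out.

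The deposited counts were filtered with filterByExpr (least count 10, least total 15), scaled by TMM and tested with edgeR 4.0.16 (quasi-likelihood, robust) in R 4.3.3, with Benjamini-Hochberg adjustment over 19104 genes, a threshold of 0.05, and a common biological coefficient of variation of 9.56%. DESeq2 1.42.0 and limma-voom (limma 3.58.1) were alternatives, as were other scalings, filters, a replicate block, a pachytene covariate and leaving out each mouse. Single values were compared by exact permutation over 70 arrangements. Scripts were tested on simulated data. Positions, exon lengths and sequences came from GENCODE vM39 on GRCm39, and near-identical copies (at least 95% identity over at least 50% of a transcript) from BLAST 2.17.0. Intervals on single libraries cover counting error only.

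The members and gene lists were chosen with earlier results of these data known. Named genes were the 8 members, Tra2b and Tra2a, called genes and the 2 lowest and 2 highest log2FC of each pathway list (mean of at least 10 CPM, 1 CPM for noncoding RNAs), tested genes within 100 kb of Malat1 or Neat1, and the 5 most correlated with each. Macrophage markers, the cell type markers that edgeR or DESeq2 called and the untested genes were named after their values were seen. Some genes that this rule selects are not reported here.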

Additional observations from a re-analysis of the deposited data

Results flagged for a closer look

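In the 46 groups of 4 mice examined for a mouse far from the other 3 of its genotype, 2 were past the 95% critical value of Dixon's test, beside 2.3 expected by chance. Srrm1 was at 316 CPM in wild type replicate B, above 289 to 290.1 CPM in the other 3 wild type mice. Srrm2 was at 1244 CPM in wild type replicate C, above 1184 to 1194 CPM in the other 3.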

How the results depend on the processing

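The log2FC of Malat1 stayed between 0.44 and 0.57 in 18 other settings, and those of Srrm2 (0.04 to 0.10), Son (0.09 to 0.16) and Neat1 (0.04 to 0.11) stayed above 0, with none of these 3 called in any. The number of genes called, 30, was 58 with upper-quartile factors, 123 with no low-count filter, 14 with a mean count of at least 50, 507 with DESeq2, 11 with limma-voom, 12 without robust estimation, 199 with the pachytene covariate, and 3 (without Tra2b-cPEko replicate D) to 84 (without wild type replicate C) when a mouse was left out. The number of the 8 genes called, 1, was 0 with a mean count of at least 50, with limma-voom and without robust estimation, and 0 to 1 when a mouse was left out. The cause was not tested. With the replicate letter as a block, 67 genes and 0 of the 8 were called; same-letter mice had correlated deviations of 0.027, −0.135, −0.039 and 0.116 for A to D, so the letters were not taken as pairs.

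Log2FC close to 0 changed sign. Srrm1 was at −0.00032 with RLE factors, −0.0029 with library totals, −0.0079 with no low-count filter, −0.0017 with DESeq2, and −0.0126 to 0.0334 when a mouse was left out. Nono was at −0.0028 with no filter, −0.0117 with the pachytene covariate and −0.0250 to 0.0345 without a mouse. Sfpq was at −0.0257 with the covariate and −0.0169 to 0.0647 without a mouse. Pspc1 was at −0.0036 with no filter and −0.0343 to 0.0274 without a mouse. The log2 difference of Nono to Sfpq ran from −0.0802 to 0.0225 and that of Pspc1 to Sfpq from −0.0471 to 0.0319 without a mouse. Medians of the gene lists were followed through the same settings, an addition made after the data were seen. When a mouse was left out they ran from −0.0208 to −0.0056 for speckle proteins, −0.0323 to 0.0042 (without wild type replicate B) for paraspeckle proteins, 0.0028 (without Tra2b-cPEko replicate B) to 0.0380 for nuclear noncoding RNAs, −0.0814 to 0.0178 for undifferentiated and −0.18 to −0.0868 for differentiating spermatogonia, −0.18 to −0.0353 for leptotene and zygotene markers, −0.21 to −0.0004 for pachytene, −0.0834 to 0.0058 for Sertoli, 0.26 to 0.56 for Leydig, 0.0138 to 0.0913 for endothelial and −0.92 to −0.13 for red blood cell markers. With the pachytene covariate the red blood cell median was 0.022, the pachytene median 0.0512 and the leptotene and zygotene median −0.0346, and with upper-quartile factors the medians of speckle proteins (0.0062), paraspeckle proteins (0.0002) and undifferentiated spermatogonia (0.0064) were above 0.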
